A study of Melianthus elongatus with 11 samples.

Results

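Class III peroxidases are plant enzymes, mostly secreted into the cell wall, that oxidise phenolic compounds with hydrogen peroxide. The contigs described here are those of a deposited expression table whose closest Arabidopsis locus was 1 of 10 listed class III peroxidase loci. A contig also had to reach a normalised read count of at least 10 in at least 2 of 11 libraries. Of 68651 contigs in the table, 20 were closest to the listed loci, and 10 of these reached that level. They came from 4 loci: 6 contigs from AT4G21960, 2 from AT4G16270, 1 from AT4G26010 and 1 from AT1G71695. They were thus chosen by their measured level as well as by closest locus, so their presence at this level is not a result.

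The plants were Melianthus minor, also filed as M. elongatus, a shrub grown outdoors whose black nectar the submitters' title likens to iron-gall ink. Tissue was put into RNAlater, a solution that preserves RNA, and libraries were made from total RNA of leaves and of nectaries, the glands that secrete nectar. Each library carries a code: code 2 has 3 libraries (2-A, 2-B, 2-C), code 1 has 3 (1-A, 1-B, 1-C), code 0 has 2 (0-A, 0-B) and code L has 3 (L-A, L-B, L-C). All codes are of 1 species, and no treatment or genotype is given. The sources used here give neither the meaning of a code nor whether its libraries came from separate plants. P-values therefore cover library-to-library spread alone, which may be technical. The filed tissue and stage are secretory nectary for code 2, presecretory nectary for 1-B and 1-C, mature leaf for 1-A, 0-A and 0-B, and postsecretory nectary for code L. The title of 2-A says presecretory, against its own stage. Because the filed labels cross the codes, the groups are the codes themselves, with no tissue or stage read into them.

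Class III peroxidases form a large family in every land plant. With hydrogen peroxide they couple monolignols into lignin and cross-link structural proteins and phenolics of the cell wall, and they can also produce reactive oxygen species. Among the Arabidopsis loci named here, AT4G16270 (PRX40) acts in the tapetum, the feeding layer of the anther, where with PRX9 it cross-links extensins. AT4G26010 (PRX44) acts in root hair growth. AT5G05340 (PRX52), AT5G66390 (PRX72) and AT2G41480 (PRX25) act in lignification, AT5G42180 (PRX64) acts at the Casparian strip, and AT3G49110 (PRX33) acts in the oxidative burst of defence. A closest match does not make a contig the counterpart of that gene, and the table describes each of these contigs only as a peroxidase superfamily protein.

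Column totals were 1009697 to 1136746 across code 2, 1001565 to 1168305 across code 1, 942092 and 1024523 in code 0, and 631454 to 916467 across code L. The depth in reads is unknown. Differences are between mean log2(value + 1) of 2 codes, the first-named minus the second, so that code 2 with L is code 2 minus code L. A contig is called, and said to have risen or fallen, at an adjusted p below 0.05 from limma, fitted across all contigs at the level, and a log2 difference of 1 or more in size. The median log2 difference over the 26053 contigs at the level was 1.18 for code 2 with L, 1.21 for code 1 with L and 1.08 for code 0 with L. After scaling libraries by median ratios these medians were 0.09, 0.08 and 0.08, and 46.6%, 46.9% and 44.0% of calls were higher than L, in place of 77.7%, 79.1% and 78.7% as deposited and 66.1%, 67.8% and 68.8% at equal column totals. Differences with code L below should be read against that shift. Summed over 84 contigs of light-harvesting proteins and the Rubisco small subunit, values were 3320 to 4314 across code 2, 3240 to 5679 across code 1, 5389 to 5474 across code 0 and 35673 to 65415 across code L. Summed over 30 contigs of nectary markers, values were 7942 to 11880 across code 2, 5785 to 7462 across code 1, 1578 and 1939 in code 0, and 23.4 to 120 across code L. Of the nectary contigs, closest to SWEET9, MYB21, MYB24, CRC, BOP2 and CWINV4, 15 of 30 were called higher and 5 lower for code 2 with 0, where 11.5% and 12.5% of all contigs were, and as many for code 1 with 0, where 13.6% and 12.2% of all were. The highest of them, Mm6 (SWEET9), was at 2725 to 5216 across code 2, 1969 to 3049 across code 1, and 0.84 and 2.86 in code 0. Mm734 (CRC) went the other way, at 85.5 to 438 across code 2, 58.4 to 116 across code 1, and 932 and 1215 in code 0. Library 1-A, filed as leaf, was at 5785 for the nectary markers and at 5679 for the leaf markers, the lowest and the highest of code 1. Libraries of code 2 were the least alike, with a Pearson's r across contigs of 0.767 to 0.878, against 0.930 to 0.967 across code 1. The r of 1-A was 0.930 with 1-B and 0.967 with 1-C, against 0.544 with 0-A and 0.541 with 0-B. A grouping by filed tissue and stage, used below as an alternative, joins 1-A with 0-A and 0-B all the same.

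The contig with the highest level was Mm1, closest to AT4G16270. It was at 8313 (2-A), 4011 (2-B) and 3885 (2-C), at 2656 (1-A), 4268 (1-B) and 2741 (1-C), at 50.8 (0-A) and 71.4 (0-B), and at 63.1 (L-A), 1.52 (L-B) and 0.621 (L-C). Every library of codes 2 and 1 thus lay far above every library of codes 0 and L, while code 0 and L-A overlapped. Mm1 took 0.731% of the column total of 2-A and 0.235% to 0.426% of the other libraries of codes 2 and 1. It stood second among all contigs in 2-A, between places 4 and 15 in the other libraries of codes 2 and 1, and ninth by its mean over codes 2, 1 and 0. Whether the deposited values are corrected for contig length is not given, so these places compare values, not transcript numbers.

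Mm1 averaged 5403 ± 2521 in code 2 (SD, n = 3), 3222 ± 907 in code 1 (SD, n = 3) and 61.1 ± 14.5 in code 0 (SD, n = 2). It had been singled out by its level in codes 2, 1 and 0, which came mostly from codes 2 and 1. Its differences with code 0 are therefore given with no test. On the log2(value + 1) scale they were 6.37 for code 2 and 5.68 for code 1 (SE 1.20 each). Under the filed grouping they were 4.56 and 3.99. There, filed secretory nectary, presecretory nectary, mature leaf and postsecretory nectary take the place of codes 2, 1, 0 and L. That grouping puts 1-A, where Mm1 was at 2656, with 0-A (50.8) and 0-B (71.4). Between code 2 and code 1 Mm1 was not called, and the log2 difference of 0.69 had a 95% interval of -1.67 to 3.04 (limma, adjusted p = 0.861). In whole tissue, fewer cells of a type and less RNA per cell cannot be told apart, for this and every contig below.

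Relative to code L, Mm1 differed by 9.63 for code 2, 8.94 for code 1 and 3.26 for code 0 on the log2 scale. These are descriptions without a test, since Mm1 had been singled out by its level in codes 2, 1 and 0. Without L-A the differences were 11.29, 10.60 and 4.92. L-A also had the highest nectary marker sum of code L, at 120 against 31.6 (L-B) and 23.4 (L-C), and the part of those markers in the Mm1 value was not tested. The nectary marker sums were also high in codes 2 and 1, where Mm1 was high, but Mm734, closest to CRC, was highest in code 0. The part of these markers in the differences of Mm1 was not tested. Of the 18 pollen and tapetum marker loci, 16 had no contig at the level. The 4 contigs of the others summed to 42.4 to 75.8 across code 2, 83.5 to 224 across code 1, 77.9 and 85.2 in code 0, and 35.1 to 50.3 across code L. The single contigs did not share 1 order of codes, and their part in the level of Mm1 was not tested.

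The second AT4G16270 contig, Mm1377, followed a different distribution within codes. It was at 85.7 (2-A), 37.7 (2-B) and 0.478 (2-C), at 0.278 (1-A), 19.3 (1-B) and 1.23 (1-C), at 0.137 (0-A) and 0.467 (0-B), and at 0.433 (L-A) and listed at 0 in both L-B and L-C. Only 2-A, 2-B and 1-B of the 11 libraries held it at 10 or more, so a high level in code 2 was favoured by the choice of contigs, and its differences are given with no test. The log2 difference for code 2 with L was 3.92 (SE 1.35). It was 2.75 without 2-A, 3.33 without 2-B, 3.83 without L-B and 3.83 without L-C. In each of these runs its place in the counts of calls below was lost. The difference for code 2 with 0 was 3.72, and 5.49 without 2-C. Another contig of the locus, Mm26621, stayed below the level and was at 7.33 (2-A), 5.81 (2-B) and 6.79 (1-B), with at most 0.726 in the other 8 libraries. Both of these contigs were thus high in the same 3 libraries, whereas Mm1 was high in all 6 libraries of codes 2 and 1.

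**Figure D1:**
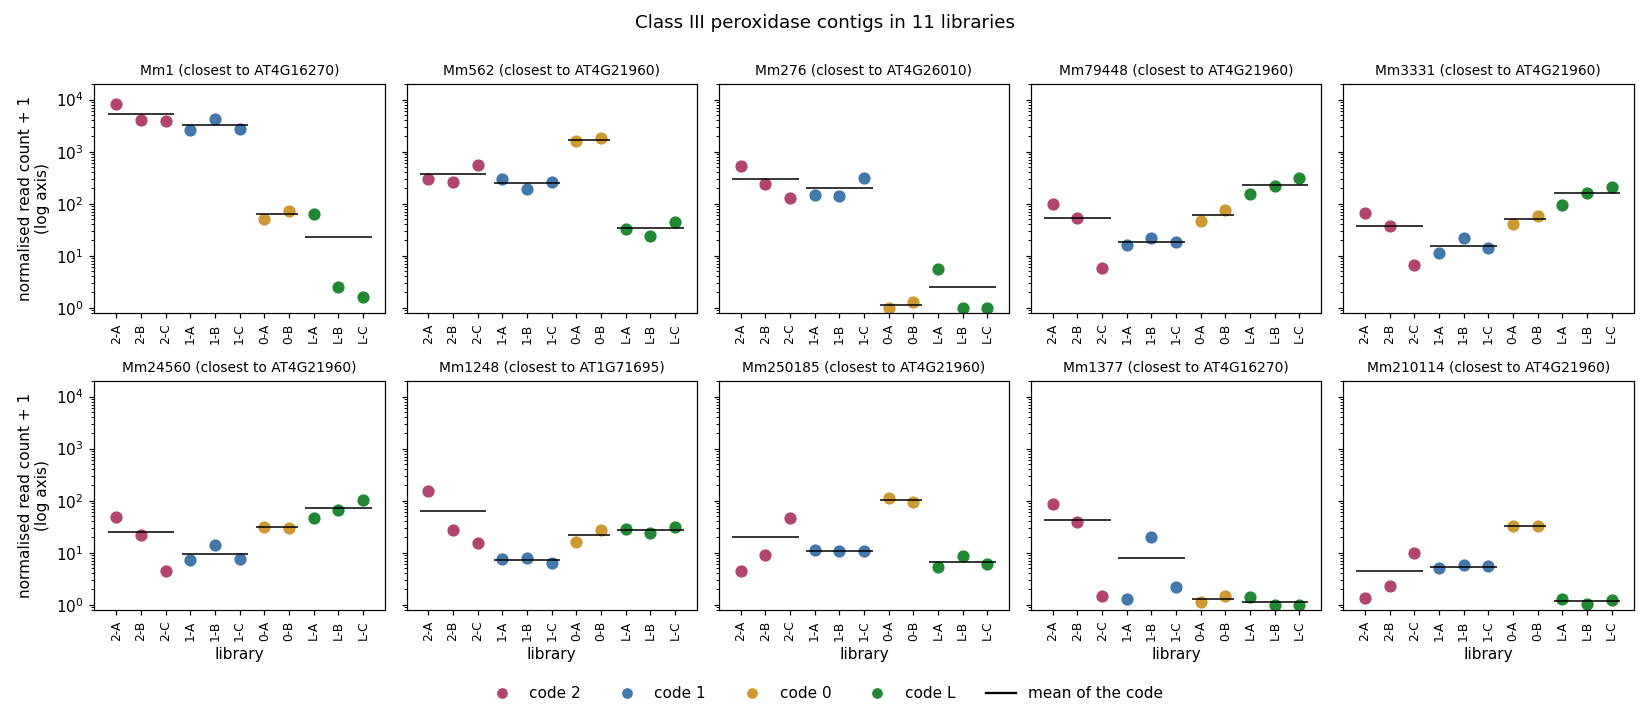
Normalised read count plus 1 (log axis) of the 10 class III peroxidase contigs in each of 11 libraries, with a bar at the mean of each code. Mm1 and Mm276 are high in codes 2 and 1, Mm562, Mm250185 and Mm210114 are highest in code 0, and Mm79448, Mm3331 and Mm24560 have their highest means in code L.

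Mm276, the contig closest to the root hair peroxidase locus AT4G26010, resembled Mm1. It was at 537 (2-A), 236 (2-B) and 126 (2-C), at 144 (1-A), 143 (1-B) and 308 (1-C), listed at 0 in 0-A and at 0.27 (0-B), and at 4.61 (L-A) and listed at 0 in both L-B and L-C. The 6 libraries of codes 2 and 1 did not overlap the 5 libraries of codes 0 and L. Mm276 reached the level through codes 2 and 1 alone, so its differences with codes 0 and L were favoured by the choice of contigs. They are given with no test. With code 0 the log2 differences were 7.81 for code 2 and 7.37 for code 1 (SE 0.77 each). With code L they were 7.15 and 6.71 in that order (SE 0.69 each). Under the filed grouping the differences with code 0 were 5.47 and 5.21. Code 2 with 1 was not called, at 0.44 with a 95% interval of -1.07 to 1.96 (limma, adjusted p = 0.859). As for Mm1, L-A was the highest library of code L.

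The 6 contigs closest to AT4G21960 fell into 2 sets when their values were seen, so the sets themselves carry no test. The first holds Mm562, Mm250185 and Mm210114. Mm562 was at 292 (2-A), 258 (2-B) and 555 (2-C), at 291 (1-A), 188 (1-B) and 259 (1-C), at 1603 (0-A) and 1794 (0-B), and at 31.2 (L-A), 22.7 (L-B) and 43.7 (L-C). Both code 0 libraries lay above every other library, and the code L libraries lay below every other one. It was the peroxidase contig of the highest value in both code 0 libraries, where Mm1 was at 50.8 and 71.4.

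Mm562 averaged 368 ± 163 in code 2 (SD, n = 3) and 1698 ± 135 in code 0 (SD, n = 2), and fell by 2.28 on the log2 scale for code 2 with 0 (SE 0.38; limma, adjusted p = 0.00143). With 246 ± 53.1 in code 1 (SD, n = 3) it fell by 2.80 relative to code 0 (SE 0.38; limma, adjusted p = 3.71e-04). Both calls with code 0 were lost under the filed grouping, at -1.44 and -2.09. It rose relative to code L (32.5 ± 10.6, SD, n = 3) by 3.43 for code 2, 2.91 for code 1 and 5.71 for code 0 (limma, adjusted p = 1.07e-05, 3.24e-05 and 2.73e-06). These 3 calls held in every alternative run. Mm562 thus stood apart from Mm1 and Mm276 in its order of codes: it was highest in code 0, and they were highest in codes 2 and 1.

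Mm250185 was at 3.44 (2-A), 7.93 (2-B) and 44.8 (2-C), at 10.0 (1-A), 9.68 (1-B) and 9.97 (1-C), at 111 (0-A) and 93.1 (0-B), and at 4.42 (L-A), 7.51 (L-B) and 5.17 (L-C). The code 0 libraries lay above all others, 2-C stood apart from 2-A and 2-B, and outside code 0 only 2-C and 1-A reached 10. It fell by 3.08 for code 2 with 0 (SE 0.72; limma, adjusted p = 0.00998) and fell by 3.24 for code 1 with 0 (SE 0.72; limma, adjusted p = 0.00678). The first call was lost without 0-A (-2.95), without 0-B (-3.20), in a fit of codes 2 and 0 alone (-3.08) and under the filed grouping (-2.003). The second was lost without 0-A (-3.11) and under the filed grouping (-2.18). For code 0 with L it rose by 3.97 (SE 0.72; limma, adjusted p = 7.95e-04). Code 2 with L was not called, at 0.89 (limma, adjusted p = 0.228), but was called without 2-A, at 1.62.

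Mm210114 was at 0.322 (2-A), 1.29 (2-B) and 8.75 (2-C), at 4.15 (1-A), 4.71 (1-B) and 4.43 (1-C), at 31.2 (0-A) and 31.0 (0-B), and at 0.264 (L-A), 0.032 (L-B) and 0.251 (L-C). It reached the level through code 0 alone, so its differences with code 0 were favoured by the choice of contigs and are given with no test: -3.38 for code 2 with 0, -2.56 for code 1 with 0 and 4.77 for code 0 with L on the log2 scale. The difference for code 1 with 0 was -2.56 without 0-A and -2.57 without 0-B. With a pseudocount of 0.1 it was -2.79, and its place in the counts of calls below was lost. The place of the difference for code 2 with 0 was lost with only those codes in the fit. Both places were also lost under the filed grouping, at -1.65 for code 1 and -2.50 for code 2. The rise of 2.20 for code 1 with L was called (limma, adjusted p = 0.00547) and was lost with a pseudocount of 10 (0.50) and under the filed grouping (2.24), and the 1.39 for code 2 with L was not called (limma, adjusted p = 0.0501) but was called without 2-A (2.005) and with a pseudocount of 0.1 (2.76). Within code 2 all 3 contigs of this set were highest in 2-C.

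The second set holds Mm79448, Mm3331 and Mm24560. Mm79448 was at 96.0 (2-A), 52.4 (2-B) and 4.74 (2-C), at 14.8 (1-A), 21.2 (1-B) and 17.3 (1-C), at 46.5 (0-A) and 73.6 (0-B), and at 151 (L-A), 217 (L-B) and 314 (L-C). Each code L library lay above every library of the other codes, and 2-C was the lowest of the 11. Mm3331 was at 66.5 (2-A), 36.0 (2-B) and 5.51 (2-C), at 10.2 (1-A), 20.9 (1-B) and 13.1 (1-C), at 40.3 (0-A) and 57.8 (0-B), and at 94.5 (L-A), 162 (L-B) and 213 (L-C). Mm24560 was at 47.5 (2-A), 21.0 (2-B) and 3.42 (2-C), at 6.24 (1-A), 12.8 (1-B) and 6.52 (1-C), at 30.7 (0-A) and 28.6 (0-B), and at 46.3 (L-A), 65.1 (L-B) and 103 (L-C). The code L libraries did not overlap code 1 or code 0 for these 3 contigs, and overlapped code 2 for Mm24560, where 2-A was above L-A. The leaf marker sums were also highest in code L, at 35673 to 65415 against at most 5679 in the other codes, and their part in the level of this set was not tested.

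Relative to code L the second set was lower in codes 2 and 1. Mm79448 fell by 2.82 for code 2 with L (SE 0.81; limma, adjusted p = 0.00832) and fell by 3.56 for code 1 with L (SE 0.81; limma, adjusted p = 0.00213). Mm3331 fell by 2.56 and fell by 3.30 in that order (limma, adjusted p = 0.00628 and 0.00136), and Mm24560 differed by -2.03 and -2.92 (limma, adjusted p = 0.0206 and 0.00288). The call of Mm24560 for code 2 with L was lost without L-C (-1.74) and with only those codes in the fit (-2.03). For code 0 with L none of the set was called as deposited, with differences of -1.87 for Mm79448, -1.60 for Mm3331 and -1.16 for Mm24560 (limma, adjusted p = 0.0842, 0.0876 and 0.200). All 3 were called after median ratio scaling (-3.02, -2.74 and -2.30), with only those codes in the fit, and without 2-C, which enters only the estimate of the spread. Mm79448 and Mm3331 were also called without 2-A, at equal column totals (-2.32 and -2.05), with a pseudocount of 10 (-1.73 and -1.44) and under the filed grouping (-2.51 and -2.31).

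Between codes 1 and 0 the second set differed by -1.68 for Mm79448, -1.71 for Mm3331 and -1.75 for Mm24560 and was not called (limma, adjusted p = 0.195, 0.130 and 0.119). The libraries of the 2 codes did not overlap for any of the 3, and the calls were made without 2-C or with only those codes in the fit. The level of Mm79448 relative to Mm3331 stayed between 0.86 and 1.59 in the 11 libraries, and that of Mm24560 relative to Mm3331 between 0.402 and 0.763. The level of Mm79448 relative to Mm562, across the sets, was 0.00853 to 0.329 across code 2, 0.0508 to 0.113 across code 1, 0.0290 and 0.0410 in code 0, and 4.83 to 9.57 across code L.

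Summed over the 6 contigs, AT4G21960 was at 377 to 622 across code 2, 257 to 337 across code 1, 1863 and 2078 in code 0, and 327 to 679 across code L. The sums of code L thus overlapped those of codes 2 and 1, while the make-up differed. The second set made up 41.5% of the sum in 2-A, 29.0% (2-B) and 2.19% (2-C), 9.28% to 21.3% across code 1, 6.31% and 7.70% in code 0, and 89.0% to 93.6% across code L. Contigs of 1 locus can share reads, which kallisto divides among them, so the split within a set is uncertain. Whether reads are also shared between the sets was not tested, so the shares of the sets carry the same limit. Whether the sets are separate genes or forms of 1 transcript is not given in the table.

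**Figure D2:**
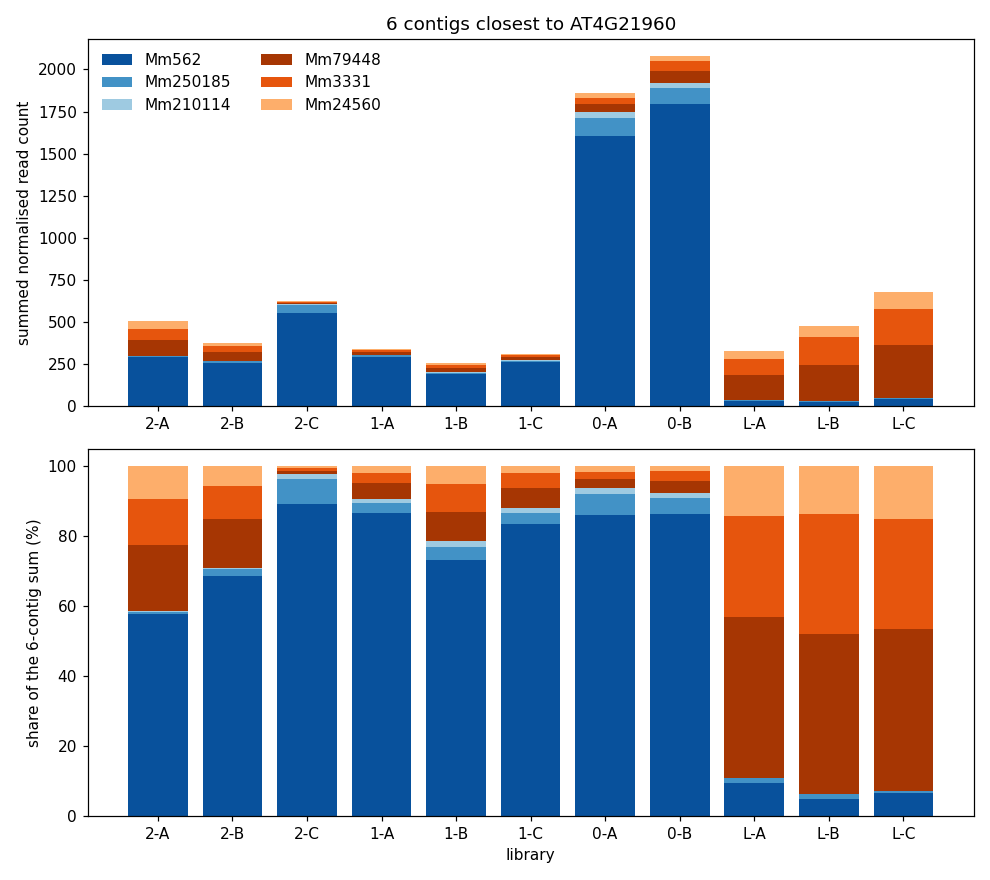
Summed normalised read count (upper panel) and share of the sum in percent (lower panel) of the 6 contigs closest to AT4G21960 in each library, with the first set in blue and the second in orange. The second set makes up 89.0% to 93.6% across code L and at most 41.5% in the other codes.

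Mm1248, the only contig closest to AT1G71695, was at 149 (2-A), 26.6 (2-B) and 14.3 (2-C), at 6.42 (1-A), 6.99 (1-B) and 5.41 (1-C), at 15.1 (0-A) and 25.8 (0-B), and at 27.7 (L-A), 22.7 (L-B) and 29.8 (L-C). The 3 code 1 libraries were the lowest of the 11, and 2-A was the highest by a wide margin. It fell by 1.93 for code 1 with L (SE 0.64; limma, adjusted p = 0.0179), a call lost without L-C (-1.85), with a pseudocount of 10 (-1.17) and under the filed grouping (-1.95). For code 2 with 1 the libraries did not overlap, and the difference of 2.46 (95% interval 1.04 to 3.88) was not called (limma, adjusted p = 0.127). Without 2-C it was called, at 3.15. Codes 1 and 0 did not overlap either, and their difference of -1.52 was not called (limma, adjusted p = 0.144) but was called without 2-A or with only those codes in the fit.

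Set against all contigs, the counts of calls were as follows. For code 2 with 0, 2 of the 10 contigs were called higher and 3 lower, where 24.0% of all contigs at the level were called, 11.5% higher and 12.5% lower. For code 1 with 0 the same 5 contigs were called, 2 higher and 3 lower, where 25.8% of all were called, 13.6% higher and 12.2% lower. Without 0-A the count of 5 was 3, and without 2-C it was 8. Under the filed grouping limma called 0 contigs of the whole table in both comparisons, with 5277 and 3557 at an unadjusted p under 0.05. One of the 3 lower contigs, Mm210114, was at the level through code 0 alone, so its place in both counts was favoured by the choice of contigs. The 2 higher contigs were Mm1, singled out by its level, and Mm276, at the level through codes 2 and 1 alone. Their places in both counts were favoured too. These comparisons share the code 0 libraries. For code 2 with 1, limma called 0 of the 10 contigs (1 at an unadjusted p under 0.05, Mm1248), where 1.17% of all were called, 0.184% higher and 0.983% lower. Without 2-C it called 6: Mm79448 (1.96), Mm3331 (1.73), Mm24560 (1.85), Mm1248 (3.15), Mm1377 (3.91) and Mm210114 (-1.64). Over all contigs it then called 1483, in place of 304 with all libraries in the fit. Mm1377 reached the level through 2-A, 2-B and 1-B alone, so its place among the 6 was favoured by the choice of contigs.

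Leaving out Mm1, 3 of 9 contigs were called higher, Mm276 and Mm1377 among them, and 3 lower for code 2 with L. Of all contigs at the level, 67.5% were called, 52.4% higher and 15.1% lower. For code 1 with L, 3 of 9 were called higher, Mm276 among them, and 4 lower. Of all contigs at the level, 68.8% were called, 54.4% higher and 14.4% lower. For code 0 with L, 3 of 9 were called higher, Mm210114 among them, and none lower, where 62.8% of all were called, 49.4% higher and 13.3% lower. The count of 3 was 5 without 2-A and 6 without 2-C. These 3 comparisons share the code L libraries. The contigs at the level include some that reached it in 1 or 2 codes alone, so these counts describe them and support nothing about the family.

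**Figure D3:**
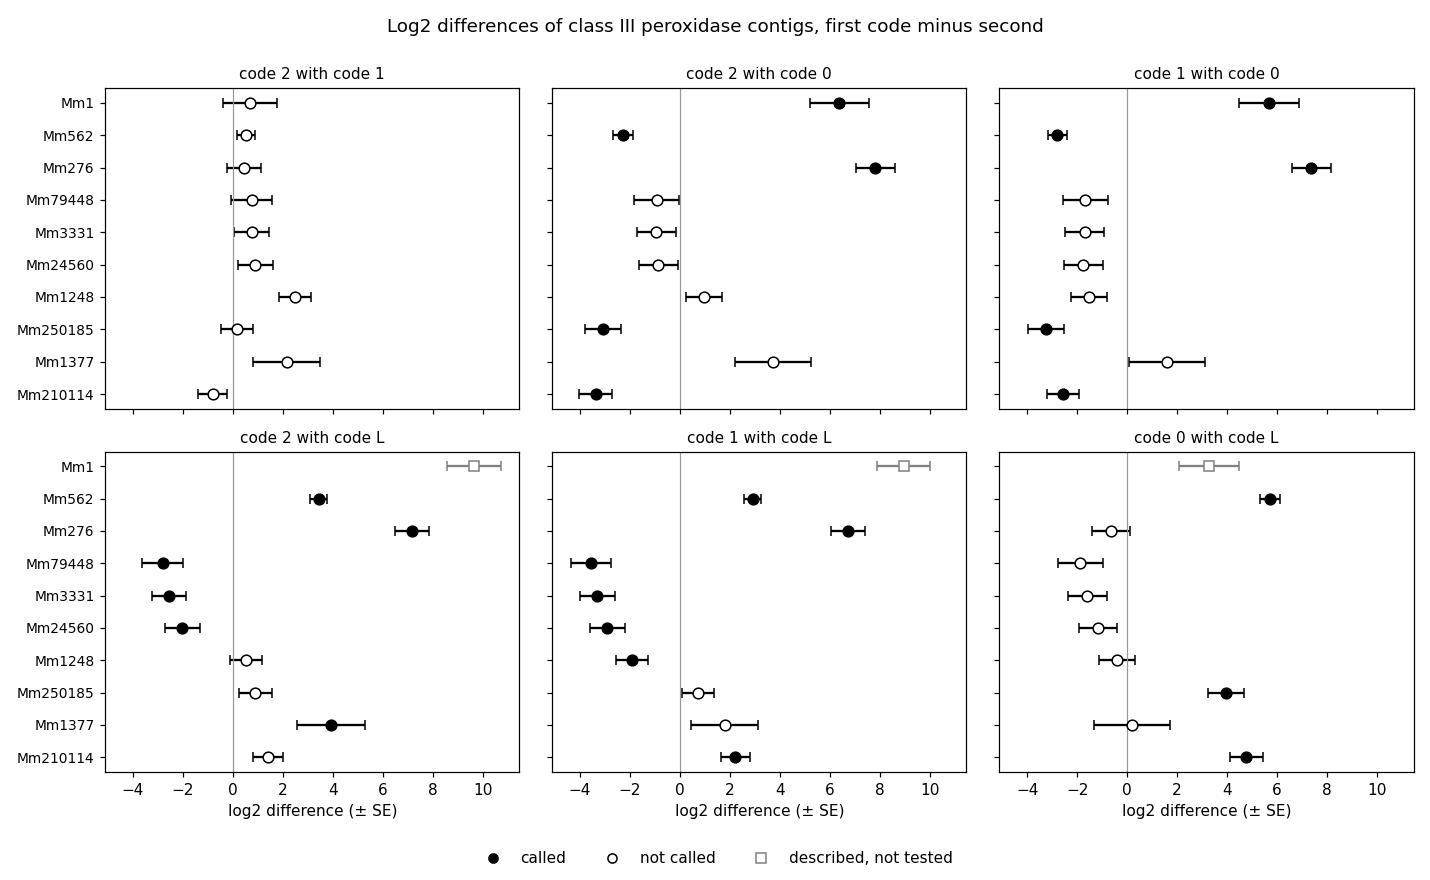
Log2 difference (± SE) of each of the 10 contigs in 6 comparisons, the first-named code minus the second, with filled points for called contigs and grey squares for Mm1 with code L, which was not tested. No contig is called for code 2 with 1, and Mm1 and Mm276 lie far to the right for codes 2 and 1 with code 0. Filled points of Mm1, Mm276 and Mm1377, and of Mm210114 with code 0, are descriptions favoured by the choice of contigs.

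The other 10 contigs of the listed loci stayed below the level. Of these, 9 reached 10 in no library, and Mm31860, closest to the lignification locus AT5G05340, reached it in 2-A alone, at 15.1, with at most 3.07 elsewhere. Just inside the level, Mm210114 reached 10 in 2 libraries and Mm1377 in 3. Just outside it, Mm112179, a second contig closest to AT4G26010, was at 0.281 to 4.64 across code 2, 3.79 to 8.23 across code 1, 0.083 and 0.162 in code 0 and 0 to 0.093 across code L. Mm397408, closest to AT5G66390, was highest in 1-C, at 8.03. The contigs closest to AT2G41480 and AT5G42180 reached 5.50 and 1.99 at most. The loci AT3G21770 and AT3G49110 had no contig in the table.

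Of the other 63 class III peroxidase loci of Arabidopsis, 19 had a contig in the table and 7 had one at the level, 14 contigs in all. Their sum was 149 to 419 across code 2, 330 to 351 across code 1, 422 and 535 in code 0, and 88.9 to 141 across code L. For code 2 with 0, 2 of the 14 were called higher and 6 lower (11.5% and 12.5% of all contigs at the level), and for code 1 with 0, 2 higher and 5 lower (13.6% and 12.2% of all). For code 2 with 1, none was called higher and 2 lower (0.184% and 0.983% of all), Mm5534 and Mm159317, both closest to AT5G47000. Relative to code L, 8 were called higher and 1 lower in code 2 (52.4% and 15.1% of all), 9 higher and none lower in code 1 (54.4% and 14.4%), and 7 higher and 1 lower in code 0 (49.4% and 13.3%). Contigs that reached the level in 1 or 2 codes alone stand in these counts and in those of the related enzymes below, which are therefore descriptions. The median difference of these 14 was -0.94 for code 2 with 0 and -0.18 for code 1 with 0, beside 0.05 and 0.10 for all contigs at the level.

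Among them, Mm161655, closest to AT2G22420 (PRX17), was at 1.42 to 5.76 across code 2, 2.32 to 3.57 across code 1 and 51.5 and 112 in code 0, and was listed at 0 in all of code L. It reached the level through code 0 alone, so its log2 differences of -4.49 for code 2 with 0 and -4.29 for code 1 with 0 are given as a description, with no test. Mm42317, of the same locus, was lowest in codes 0 and L. It was at 6.60 to 27.1 across code 2, 18.4 to 54.8 across code 1 and 1.79 and 3.58 in code 0. It reached the level through codes 2 and 1 alone, so its differences with code 0 are also a description. They were 2.23 for code 2 and 3.29 for code 1. The 2.23 became 1.87 without 0-A and 2.59 without 0-B. Without 2-B it was 1.86, and its place in the count of calls above was lost.

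Of the rest of the 5 highest, Mm112, closest to AT5G47000, was at 170 (2-A), 216 (2-B) and 19.2 (2-C), 68.1 to 84.6 across code 1, 112 and 149 in code 0 and 1.12 to 1.45 across code L. It was called only relative to code L, higher by 5.30, 5.07 and 5.82 for codes 2, 1 and 0. Mm9603, closest to AT5G40150, was at 29.6 to 61.8 across code 2, 43.6 to 61.6 across code 1, 110 and 113 in code 0 and 46.3 to 72.5 across code L. It fell by 1.45 for code 2 with 0 and fell by 1.05 for code 1 with 0 (limma, adjusted p = 0.00751 and 0.0321). Both calls were lost without 0-A or 0-B, and the second also without any 1 library of code 1 (-1.15 to -0.90). Mm5534 was at 10.3 to 27.0 across code 2, 51.7 to 88.7 across code 1, 38.0 and 42.1 in code 0 and 0.017 to 0.841 across code L. It fell by 2.14 for code 2 with 1 (limma, adjusted p = 0.0284), a call lost without any 1 library of codes 1 and 0 or without 2-A (-2.32 to -1.93). Mm159317 was at 1.83 to 2.05 across code 2 and at 40.2 (1-A), 30.0 (1-B) and 6.73 (1-C). It reached the level through 1-A and 1-B alone, so its log2 difference of -2.86 for code 2 with 1 is a description. Its call was lost without any 1 of the 11 libraries other than 1-C, 2-C and L-A (-2.88 to -2.39).

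Laccases, copper enzymes that oxidise phenolics with oxygen in place of hydrogen peroxide, had 14 contigs at the level, 8 of them closest to LAC14. Their sum was 1578 (2-A), 900 (2-B) and 71.1 (2-C), 91.3 to 132 across code 1, 546 and 770 in code 0, and 54.0 to 73.3 across code L. For code 2 with 0, 1 of 14 was called higher and 1 lower, where 11.5% and 12.5% of all contigs were. For code 1 with 0 none was called higher and 5 lower, where 13.6% and 12.2% of all were, and for code 2 with 1 limma called none (8 at an unadjusted p under 0.05). A LAC14-like contig, Mm1478, was at 3.27 (1-A) and 2.02 (1-C), listed at 0 in 1-B, and at 135 (0-A) and 118 (0-B). It fell by 5.76 for code 1 with 0 (SE 0.90; limma, adjusted p = 8.56e-04), and the contig called higher for code 2 with 0 was Mm248958, closest to LAC15. It reached the level through 2-A and 2-B alone, so its log2 difference of 2.71 is a description, and its call did not hold when 0-A (2.71), 0-B (2.71), 2-A (2.22) or 2-B (2.27) was left out. Relative to code L the largest called differences were 5.44 for code 2 (Mm572), 3.68 for code 1 (Mm459) and 6.74 for code 0 (Mm1478). Like Mm1, Mm276, the second AT4G21960 set, Mm1248 and Mm1377, the laccase sum was highest in 2-A and lowest in 2-C within code 2.

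Monolignol enzymes make the phenolic substrates of lignin. Of 29 contigs at the level, 11 were called higher and 2 lower for code 2 with 0 (11.5% and 12.5% of all contigs), 11 higher and 3 lower for code 1 with 0 (13.6% and 12.2%), and limma called none for code 2 with 1 (11 at an unadjusted p under 0.05). Relative to code L, 15 were called higher and 5 lower in code 2 (52.4% and 15.1% of all), 14 higher and 5 lower in code 1 (54.4% and 14.4%), and 9 higher and 9 lower in code 0 (49.4% and 13.3%). Mm228, closest to the methyltransferase locus AT5G54160, was at 551 (2-A), 248 (2-B) and 896 (2-C) and at 5.77 (0-A) and 18.7 (0-B), a rise of 5.43 (SE 0.69; limma, adjusted p = 2.56e-04). Mm22818, of the same locus, fell by 4.72 for code 1 with 0 (SE 0.65; limma, adjusted p = 4.04e-04). The largest called differences with code L were 4.45 for code 2 (Mm8966, of the same locus), and -4.16 for code 1 and -4.53 for code 0 (Mm22331). Mm8966 reached 10 in codes 2 and 1 alone, so its difference is a description. Mm22331, closest to the phenylalanine ammonia-lyase locus AT2G37040, reached 10 in code L and 2-C alone. It was thus at the level only through code L, so its differences with code L are descriptions too.

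Among 20 listed loci of enzymes that supply hydrogen peroxide, only superoxide dismutases had contigs at the level, 12 from 4 loci. The 10 NADPH oxidase loci had none, and enzymes outside the list were not looked at. For code 1 with 0, 2 of the 12 were called lower and none higher (12.2% and 13.6% of all contigs), the larger being Mm3397 (manganese superoxide dismutase 1) at -1.05, a call lost without 0-A, 0-B or any 1 library of code 1 (-1.08 to -1.01). For code 2 with 0 and code 2 with 1 limma called none (5 and 0 at an unadjusted p under 0.05). Their sums were 426 to 619 across code 2, 498 to 553 across code 1, 582 and 637 in code 0 and 450 to 610 across code L. The largest called differences with code L were -2.06 for code 2 (Mm27150, copper/zinc superoxide dismutase 2), and 2.01 for code 1 and 1.57 for code 0, both of Mm122430 (manganese superoxide dismutase 1). The calls of Mm122430 were lost after median ratio scaling, at 0.78 and 0.46. Of 22 contigs of ascorbate peroxidases and catalases, which remove hydrogen peroxide, 6 were called higher and 1 lower for code 2 with 0 (11.5% and 12.5% of all contigs), and 8 higher and none lower for code 1 with 0 (13.6% and 12.2%). Relative to code L, 3 were called higher and 12 lower in code 2 (52.4% and 15.1% of all), 4 higher and 11 lower in code 1 (54.4% and 14.4%), and 4 higher and 14 lower in code 0 (49.4% and 13.3%). Mm6983, closest to catalase 1, was at 39.2 to 79.5 across code 2 and at 5.07 and 7.55 in code 0. It reached the level through codes 2 and 1 alone, so its log2 difference of 2.89 (SE 0.40) is a description. Mm317, also closest to catalase 1, rose by 4.37 for code 1 with 0 (SE 1.45; limma, adjusted p = 0.0441), a call lost without any 1 library of codes 1, 0 and L (4.17 to 4.52). The largest called differences with code L were -4.40 for code 2 and -6.77 for code 0 (Mm48788, catalase 2) and -3.39 for code 1 (Mm38031, ascorbate peroxidase 4).

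**Figure D4:**
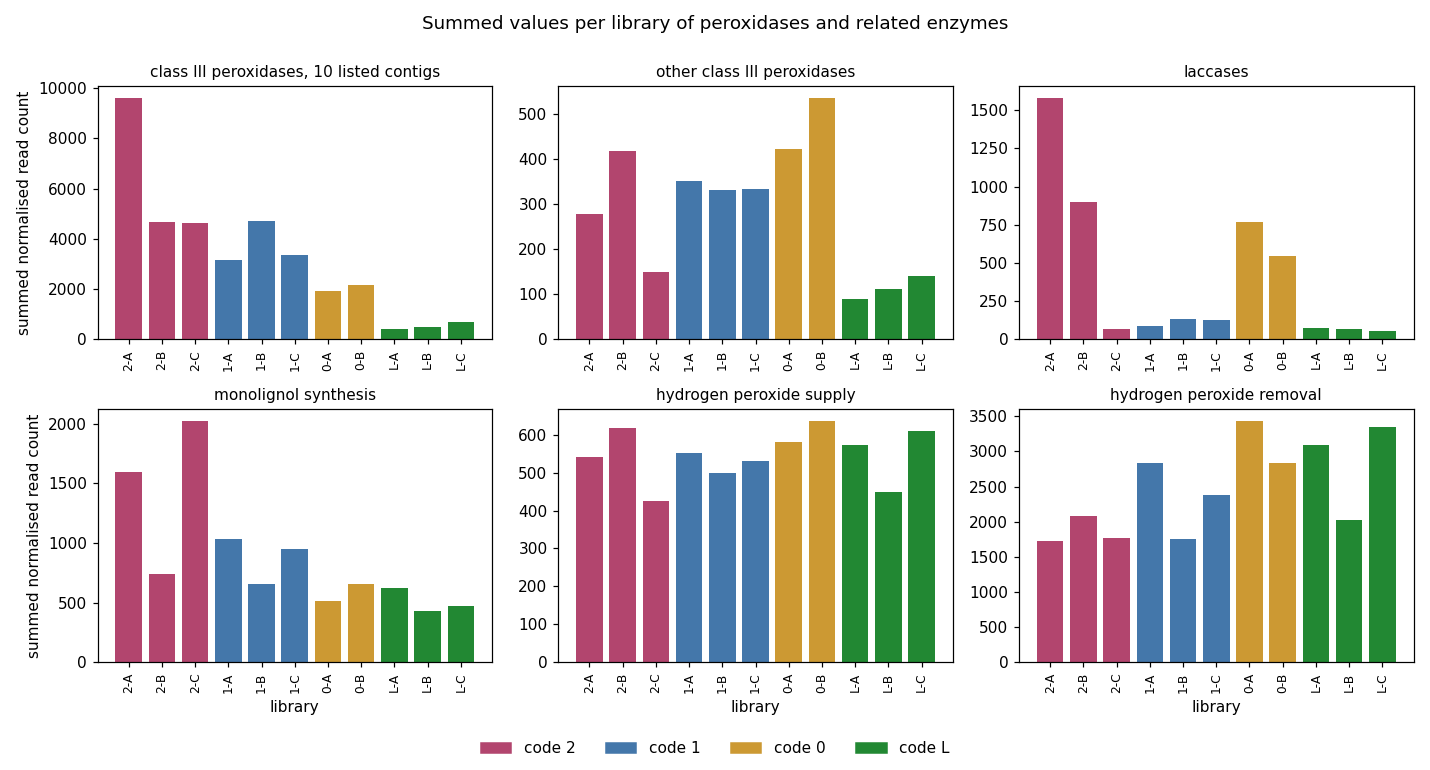
Summed normalised read count per library of the 10 class III peroxidase contigs and of 5 related groups of contigs, coloured by code, each panel with its own axis from 0. The peroxidase sum runs from 4648 to 9590 across code 2, 3143 to 4694 across code 1, 1929 and 2175 in code 0 and 423 to 709 across code L, and the laccase sum is high in 2-A, 2-B and code 0.

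Mm1 made up 83.6% to 86.7% of the sum of the 10 contigs in code 2, 81.4% to 90.9% across code 1, 2.63% and 3.28% in code 0, and 0.0876% to 14.9% across code L. The sum of the other 9 was 677 to 1277 across code 2, 426 to 625 across code 1, 1878 and 2104 in code 0, and 360.0 to 709 across code L. The summed peroxidase signal of codes 2 and 1 was thus mostly 1 contig, and that of code 0 mostly Mm562.

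Markers of xylem and phloem, where class III peroxidases take part in lignification, had 10 contigs at the level from 3 of 13 loci. They summed to 132 to 179 across code 2, 144 to 226 across code 1, 172 and 221 in code 0, and 86.5 to 150 across code L. Codes 2, 1 and 0 overlapped, but the contigs differed among themselves. The 3 contigs closest to the xylem cellulose synthase locus IRX3 had both code 0 libraries above every other library, as Mm562 had. The highest of them, Mm12783, was at 24.0 to 58.6 across code 2, 35.4 to 43.0 across code 1, 98.2 (0-A) and 72.8 (0-B), and 34.8 to 55.3 across code L. The other contigs of the list did not share this order. Mm15839, closest to the xylem peptidase locus XCP2, went the other way, at 7.50 (0-A) and 17.2 (0-B). It was at 24.8 to 52.3 across code 2 and 20.8 to 81.3 across code 1. None of the 6 contigs closest to the phloem locus CALS7 had both code 0 libraries above every other library. The part of these markers in the level of Mm562 was not tested.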

How the data were processed

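Leaf and nectary RNA was sequenced in paired-end runs, per the labels' protocols, and kallisto 0.46.1, which assigns reads to transcripts and divides shared reads, is named in the submitters' processing notes. The authors deposited 1 column of signal per library, named normalised read counts per the file headers. The sources used here do not say how libraries were scaled, contigs built or rows chosen. The values are neither whole numbers nor equal in total between libraries, so no count test was used, and no interval that needs depth is given. The row order nearly follows the code 1 mean minus the code L mean (Spearman's rho with row number, -0.970), so shares of calls are shares of this table.

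Columns were matched to samples by their descriptions and grouped by library code. The 26053 contigs that reached 10 in 2 or more libraries entered a single fit of log2(value + 1) over all 11 libraries in limma 3.58.1 (R 4.3.3), with moderated variances that follow the mean (trend). P-values are two-sided and Benjamini-Hochberg adjusted over those 26053. Calls needed an adjusted p below 0.05 together with a log2 difference of 1 or more in size, and "rose" and "fell" are used of called contigs. The pseudocount of 1 makes differences of low contigs too small, and an exact 0 can be a failed estimate. The procedure was run on simulated data for codes 2 and 1 with 0 alone. Changes were placed only in contigs of higher level, so low contigs and differences with code L were not covered. Plots were made in Python 3.11.15 (matplotlib 3.10.9).

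The contigs, lists, comparisons and alternatives were chosen with earlier results of these data known. Every contig of the listed loci is accounted for, with values in each library for those of the highest mean of a locus, those at 100 or more in any library and those called without overlap. Of the other peroxidases the 5 of highest mean are named, and of each related list the called contig with the largest difference in each comparison. Arabidopsis gene names and roles other than the table's descriptions are background. Alternatives were other pseudocounts, filters and scalings, grouping by filed tissue and stage, the library letter as a block, only the compared codes in the fit, and leaving out each library.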

Additional observations from a re-analysis of the deposited data

How the results depend on the processing

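No called log2 difference of the 10 contigs changed sign in any alternative run. Counts of called peroxidase contigs were 5, 5 and 0 for codes 2 against 0, 1 against 0 and 2 against 1, and 6, 7 and 3 for codes 2, 1 and 0 against L, where Mm1 is left out. Grouped by filed tissue and stage, limma called 0 for code 2 with 0 and 1 with 0 (5 and 3 at an unadjusted p under 0.05), and 5 for code 0 with L. With only the compared codes in the fit they were 3, 9 and 6 for code 2 with 0, 1 with 0 and 0 with L. For code 0 with L the count was 5 with a pseudocount of 10, 5 at equal column totals and 6 after median ratio scaling. With no filter, all 20 contigs of the loci enter the fit. Mm1 left out, 11 were then called for codes 2 and 1 with L each, where 31116 and 32458 of all contigs were. Leaving out 1 library gave 4 to 6, 3 to 8 and 0 to 6 for 2 against 0, 1 against 0 and 2 against 1, and 4 to 7, 6 to 7 and 3 to 6 for 2, 1 and 0 against L. Without 0-A or 0-B, code 0 has 1 library, which is assumed to vary like the other codes.

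Over all contigs limma called 6252, 6734 and 304 for 2 against 0, 1 against 0 and 2 against 1, and 17578, 17912 and 16353 for 2, 1 and 0 against L. In the same order the counts were 11502, 13187, 538, 31116, 32458 and 29206 with no filter, and 1954, 2071, 93, 5290, 5365 and 4903 with a filter of 50, where fewer contigs are tested. A pseudocount of 10 gave 3614 and 4290 for codes 2 and 1 with 0 and 10053, 9992 and 8757 with L, and a pseudocount of 0.1 gave 113 for code 2 with 1. Median ratio scaling gave 11654 for code 1 with L, 10114 for code 0 with L and 194 for code 2 with 1. The filed grouping gave 0 for code 2 with 0, 1 with 0 and 2 with 1 by limma (5277, 3557 and 1263 at an unadjusted p under 0.05). With only the compared codes in the fit the count was 4075 for code 2 with 0 and 1 for code 2 with 1. Leaving out both 1-A and 2-A, an alternative chosen after seeing the data, gave 0 for code 2 with 1 (1412 at an unadjusted p under 0.05). Leaving out 1 library gave 3299 to 7208, 3955 to 7576 and 0 to 1483 for code 2 with 0, 1 with 0 and 2 with 1, with 0 called by limma without 1-A (2239 at an unadjusted p under 0.05) and 1483 without 2-C. It gave 16440 to 17808, 16722 to 18259 and 13407 to 16844 for 2, 1 and 0 against L. Beyond these constructions the cause was not tested.

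Library letters are shared between codes. Deviations of same-lettered libraries correlated by -0.126 to 0.236 across contigs, so the letters were not taken to pair libraries. With the letter as a replicate block, 2 of the 60 differences of the 10 contigs crossed the threshold, Mm1377 for code 2 with 0 (4.47) and Mm210114 for code 2 with L (1.39), both becoming called, and the counts over all contigs were 6383, 6742, 249, 17768, 18065 and 16707 in the order above. The depth in reads is unknown, so its limit on low contigs such as Mm1377 and Mm210114 cannot be given.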

Other observations

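The 5 contigs at the level, other than class III peroxidases, whose log2 values were most like those of Mm1 over the 11 libraries were Mm1524, closest to a RING/U-box protein locus (AT1G24440), Mm26997 (AT5G35490, described as mto 1 responding up 1), Mm57745 (AT3G21865, peroxin 22, a peroxisome protein), Mm5808 (AT3G47790, ABC2 homolog 7, a transporter of the ABC family) and Mm877 (AT3G45010, serine carboxypeptidase-like 48). Pearson's r with Mm1 was 0.990, 0.989, 0.988, 0.986 and 0.984 in that order. The libraries fall into 4 codes, so r is a measure of likeness here and no test. It does not compare levels or sizes of change, and 2 of the 5 lay near the level of 10. Mm26997 was at 8.01 to 10.4 across code 2, 9.37 to 11.6 across code 1, 3.29 and 2.64 in code 0, and 0.826 to 2.54 across code L. Mm57745 was at 8.07 to 15.6 across code 2, 6.94 to 7.98 across code 1, 1.59 and 2.15 in code 0, and 0 to 1.30 across code L. Mm5808 was at 490 (2-A), 415 (2-B) and 181 (2-C), 188 to 237 across code 1, 9.70 and 9.92 in code 0, and 2.94 (L-A) with 0 listed in L-B and L-C. Mm1524 was at 62.1 to 107 across code 2, 49.9 to 70.5 across code 1, 5.90 and 7.27 in code 0, and 2.22 (L-A) with 0 listed in L-B and L-C. For these 5 contigs, as for Mm1, L-A was the highest library of code L. The choice by r with Mm1, which took in L-A, favoured this likeness, so it is a description. All 5 reached 10 in codes 2 and 1 alone, so low values in codes 0 and L were favoured too. Mm276, not chosen by r, also had L-A as its highest library of code L. The r of Mm1 with Mm276 was 0.937, and with Mm79448, Mm3331 and Mm24560 it was -0.751, -0.781 and -0.731.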
